A study of Mus musculus with 15 samples.

Results

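The amino acid and peptide transporters are the carrier proteins that move amino acids, di- and tripeptides and some related small molecules across cell membranes. The members were all genes whose symbol starts with Slc1a, Slc3a, Slc6a, Slc7a, Slc15a, Slc36a, Slc38a or Slc43a followed by a digit, a rule that uses no measured value. It took in 69 of the 19938 genes measured. By family these were 7 Slc1a, 2 Slc3a, 21 Slc6a, 16 Slc7a, 5 Slc15a, 4 Slc36a, 11 Slc38a and 3 Slc43a genes. The rule also took in Slc6a19os and Slc7a6os, opposite-strand genes that are not named as carriers. The study profiled small-intestinal epithelium of 10-week-old wild-type BALB/c mice on 15 Affymetrix expression arrays. RANKL, the TNF-family cytokine that drives the formation of M cells in the epithelium over lymphoid follicles, was injected intraperitoneally as a GST fusion protein, with repeated injections each day. There were 3 arrays each of mice treated for 1, 2, 3 and 4 days and 3 arrays of control mice given no agent, and no group given GST or vehicle alone was among the samples. Epithelium was loosened in 30 mM EDTA for 10 min and peeled off, so each array reads a mixture of the epithelial cell types. The labels do not state that each array had a mouse of its own, so p-values rest on the spread between arrays, which may be technical.

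Dietary protein reaches the enterocyte as small peptides and free amino acids. The proton-coupled peptide carrier and several sodium-coupled amino acid carriers sit in the brush border, and exchangers and uniporters in the basolateral membrane pass amino acids on to the blood. Other members serve every cell's own supply, export amino acids from lysosomes, or clear neurotransmitters from the space around neurons. Several of the carriers that supply the cell itself are transcribed under the factor ATF4 when amino acids are short, through a DNA element called CARE.

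The 4 start-site windows below are shown because they belong to the member with the largest differences from control (Slc6a20b), its neighbour and paralogue (Slc6a20a), the glial glutamate carrier gene that rose on day 1 (Slc1a2) and a carrier gene whose window holds the CARE element (Slc7a11). Each runs from 250 bases before to 50 after the start, 5′ to 3′ on the gene's strand, from RefSeq on GRCm38.p6, the C57BL/6J reference, and capitals mark CARE matches on either strand. The positions are chr9:123632489-123632788 on the minus strand for Slc6a20b, chr9:123678783-123679082 on the minus strand for Slc6a20a, chr2:102706188-102706487 on the plus strand for Slc1a2 and chr3:50443564-50443863 on the minus strand for Slc7a11.
Slc6a20b: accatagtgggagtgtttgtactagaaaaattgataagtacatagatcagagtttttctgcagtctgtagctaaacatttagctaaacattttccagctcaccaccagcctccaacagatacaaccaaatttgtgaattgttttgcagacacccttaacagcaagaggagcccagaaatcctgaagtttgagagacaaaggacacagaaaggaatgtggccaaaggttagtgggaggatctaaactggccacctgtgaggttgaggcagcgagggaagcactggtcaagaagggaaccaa
Slc6a20a: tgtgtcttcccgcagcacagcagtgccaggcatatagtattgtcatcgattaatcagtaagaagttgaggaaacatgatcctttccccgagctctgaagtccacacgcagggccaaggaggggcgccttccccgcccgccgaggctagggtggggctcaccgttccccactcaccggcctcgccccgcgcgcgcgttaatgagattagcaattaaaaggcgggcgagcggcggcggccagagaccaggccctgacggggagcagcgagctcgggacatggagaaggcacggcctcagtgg
Slc1a2: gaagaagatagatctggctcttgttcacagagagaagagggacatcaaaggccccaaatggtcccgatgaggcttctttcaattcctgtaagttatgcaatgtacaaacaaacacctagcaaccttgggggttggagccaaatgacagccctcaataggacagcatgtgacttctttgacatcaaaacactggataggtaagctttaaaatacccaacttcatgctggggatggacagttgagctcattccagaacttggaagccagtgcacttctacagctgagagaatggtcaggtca
Slc7a11: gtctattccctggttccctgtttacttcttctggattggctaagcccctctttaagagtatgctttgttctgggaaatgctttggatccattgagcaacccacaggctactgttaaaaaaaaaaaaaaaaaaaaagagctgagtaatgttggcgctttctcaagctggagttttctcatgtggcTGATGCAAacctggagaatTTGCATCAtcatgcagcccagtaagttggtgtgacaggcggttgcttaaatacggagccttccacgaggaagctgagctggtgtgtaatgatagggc

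The windows of the 2 paralogues were not alike: 170 of 356 aligned columns (47.8%) were identical, against 50.8% for the unrelated pair Slc1a2 and Slc6a20b. The GC content was 44.0% in the Slc6a20b window and 62.3% in the Slc6a20a window. RefSeq windows matched 51 of the 69 members, with 72 windows in all. The CARE letters TTGCATCA, searched on both strands, were in 4 of these 72 windows (5.56%), those of Slc7a11, Slc1a4 and Slc7a7, against 0.895% of all 32851 windows. A consensus for the kappaB element, the DNA letters bound by the NF-kappaB factors that act below the RANKL receptor, was in 9 of the 72 (12.5%) against 8.46% of all windows. Windows of Slc7a7 overlap, so the same CARE site and the same kappaB site of that gene were counted in more than 1 window. By gene, CARE was in 3 of 51 members and kappaB in 8 of 51. Neither motif was in the Slc6a20b, Slc6a20a or Slc1a2 window. A match is a description of these letters, not a binding site.

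Values are quantile-normalised log2 intensities, read from the probe set with the highest mean for each gene, and differences are on the log2 scale with standard errors from a linear model (limma). A gene is said to rise or fall, or is called, where the Benjamini-Hochberg adjusted p over all 19938 genes was under 0.05. The 4 comparisons with control share the same 3 control arrays. All 11 enterocyte markers were measured, none was called on any day, and their summed intensity was 76743 to 92221 in control and 75381 to 95417 over the RANKL arrays. Of 7 M cell markers, 6, 7, 7 and 6 rose on days 1 to 4; their summed intensity was 1487 to 1730 in control, 7128 to 9154 on day 1, 10910 to 12376 on day 2, 7579 to 11984 on day 3 and 4163 to 6637 on day 4. Tuft cell markers rose in 0, 3, 3 and 4 of 6 cases, with sums of 704 to 775 in control and 1177 to 1390 on day 4. Enteroendocrine markers rose in 0, 0, 1 and 4 of 7 cases, with sums of 3791 to 4264 in control and 6368 to 6997 on day 4. The 3 Y-linked genes measured, taken as a background level, read 4.88 to 5.50 over the 15 arrays, and every marker of these 4 lists exceeded that range on at least 1 array. The part of these cell types in the transporter results was not tested, and in such bulk samples fewer cells of a type and less RNA per cell cannot be told apart. RANKL day 1 replicate 2 stood apart in its deposited values, with an interquartile range of 1.95 log2 units against 2.26 to 2.55 on the other arrays.

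Among the transporters, 7 of 69 (10.1%) were called on at least 1 RANKL day, against 5.87% of all genes, and 62 were called on none. On day 1, 3 members rose (Slc1a2, Slc38a1 and Slc38a2) and Slc6a20b fell, where 3.94% of all genes were called, 2% higher and 1.94% lower. On day 2, Slc36a1 and Slc38a1 rose and Slc6a20b fell, against a background of 2.57%, with 1.52% higher and 1.05% lower. On day 3, Slc38a1 rose and 3 members fell (Slc6a20b, Slc6a20a and Slc7a9), against 2.96%, with 1.72% higher and 1.24% lower. On day 4, Slc6a20b fell and no member rose, against 0.908%, with 0.818% higher and 0.0903% lower. The median member difference was 0.01, -0.00, 0.00 and 0.05 on days 1 to 4, and that of all genes was -0.01, -0.02, -0.01 and 0.01. Members whose 3 RANKL values all lay above the controls numbered 5, 10, 8 and 8 on days 1 to 4, where the background was 6.08%, 8.09%, 12.3% and 12.1%. Those entirely below numbered 3, 4, 5 and 3, where it was 8.51%, 9.44%, 9.9% and 6.16%. Of the members not called, the 95% interval of the difference lay within 1 log2 unit of 0 for 62 of 65 on day 1, 63 of 66 on day 2, 61 of 65 on day 3 and 64 of 68 on day 4. Of all members, 68 read above the Y-linked range on all 15 arrays and Slc7a12 did so on none. The share over all genes was not counted, and a reading above this low floor is not taken as expression. Elavl4, of the neural and glial marker list, was above it on all 15 arrays too, at 5.61 to 5.85. The interval counts include members near this floor, such as Slc7a13 at 5.64 to 5.81.

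**Figure D1:**
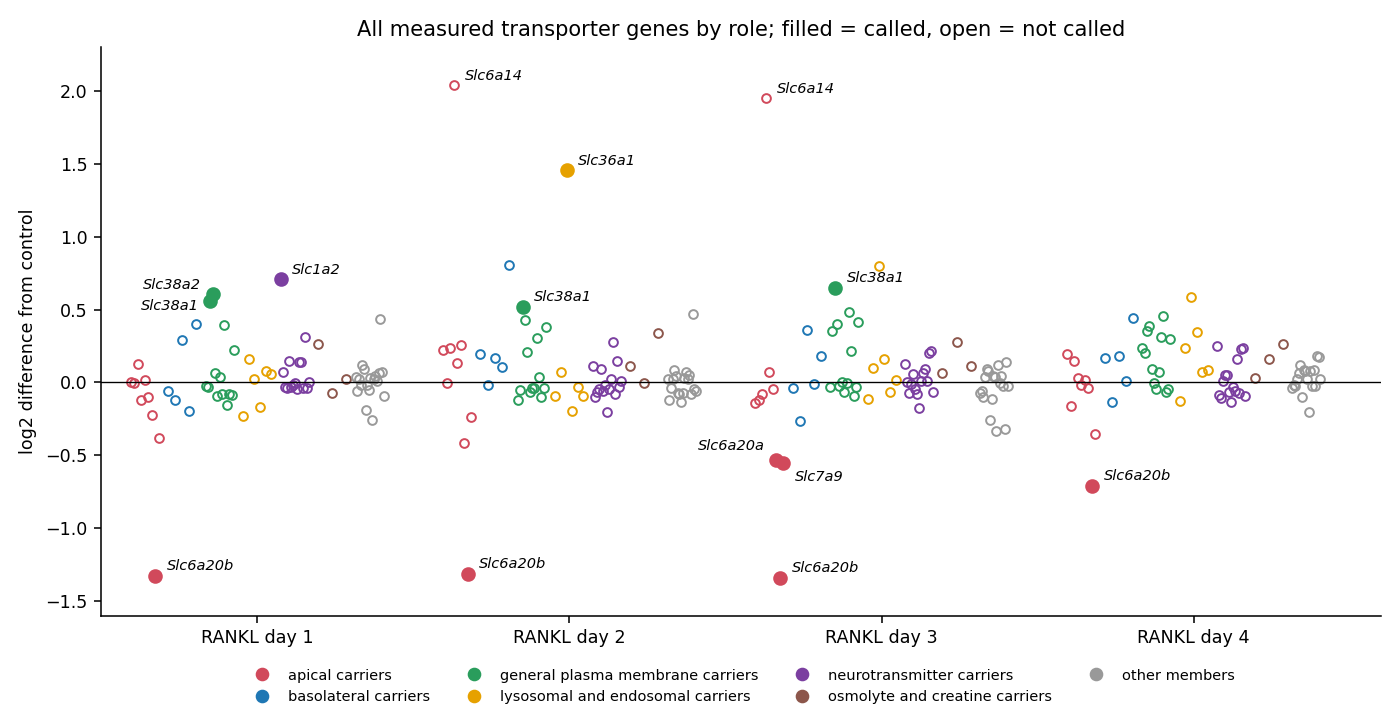
Each point is 1 of the 69 transporter genes on 1 RANKL day, coloured by role, with its log2 difference from the mean of the 3 control arrays on the y axis; filled points were called. Most points lie near 0, Slc6a20b is lowest on each day, and the highest open points on days 2 and 3 are Slc6a14 at 2.04 and 1.95.

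The brush-border carriers held the members that fell. Of 9, Slc6a20b fell on days 1, 2 and 4 and Slc6a20b, Slc6a20a and Slc7a9 on day 3, and none rose. These 9 leave out Slc36a1, which also occurs at the brush border but is counted below with the lysosomal carriers, and which rose on day 2. Slc6a20b, on chromosome 9, is a paralogue of Slc6a20a, which encodes the sodium- and chloride-coupled proline carrier SIT1. Its log2 intensity was 8.18, 8.04 and 8.20 in control, 6.83, 6.63 and 6.98 on day 1, 6.89, 6.68 and 6.92 on day 2, 6.88, 6.82 and 6.70 on day 3, and 7.42, 7.23 and 7.65 on day 4. All 12 RANKL arrays were below all controls, and the day 4 arrays were above those of days 1 to 3. Slc6a20b fell by 1.33 ± 0.11 (SE) on day 1, or 2.51-fold (limma adjusted p = 1.44e-05), by 1.31 ± 0.11 on day 2 (1.29e-05), by 1.34 ± 0.11 on day 3 (1.89e-05) and by 0.71 ± 0.11 on day 4, or 1.64-fold (0.00678). None of these 4 calls was lost under any of the 25 other settings, which include leaving out each array in turn. Markers of intestinal segment were read on the same arrays, and most of them were not called. Of 5 proximal markers, with a summed intensity of 1637 to 4172 in control and 1849 to 8018.5 under RANKL, Slc40a1, the iron exporter gene, was called lower on each day, at -2.10, -1.82, -1.77 and -1.77 (limma adjusted p 0.0056 to 0.0417), and no other was called. The proximal list did not move with Slc40a1: its medians were -0.01, 0.76, -0.06 and 0.49 on days 1 to 4, and 4 of 5 differences were positive on day 4. Of 5 ileal markers, with a sum of 29461 to 32385 in control and 16237 to 29532 under RANKL, none was called on any day, 3 of 5 lay entirely below the controls on each day, Slc10a2 and Slc51a on all of them, and the medians were -0.25, -0.27, -0.48 and -0.51. The 25 settings include a fit with log2 Lct, a proximal marker, as a covariate chosen after seeing the data. Beyond that fit, the part of segment in the Slc6a20b result was not tested.

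Slc6a20a read 12.11, 12.30 and 12.45 in control, 11.91, 12.20 and 12.09 on day 1, 11.84, 11.80 and 11.99 on day 2, 11.56, 11.85 and 11.86 on day 3, and 12.35, 12.02 and 12.38 on day 4. The arrays of days 2 and 3 lay below all controls and those of days 1 and 4 overlapped them. Slc6a20a fell by 0.53 ± 0.12 on day 3, or 1.45-fold (limma adjusted p = 0.0337). Its differences of -0.22 on day 1, -0.41 on day 2 (adjusted p = 0.115, and 0.0228 with array weights) and -0.04 on day 4, with an interval of -0.30 to 0.23, were not called. The fit with array weights stopped before its convergence tolerance. It called 4.66% of all genes on day 2, against 2.57% without weights. The paralogues have a probe set each, and whether either probe set also takes up RNA of the other gene was not tested. The Slc6a20a call was lost without control replicate 2 or 3 or any of the 3 day 3 arrays (limma adjusted p 0.0612 to 0.136), and in a fit of only the 2 groups compared (0.0645).

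Slc7a9 and Slc3a1 encode the light and heavy chain of the brush-border exchanger for cystine and dibasic amino acids. Slc7a9 read 11.78, 11.94 and 11.93 in control, 11.32, 11.68 and 11.52 on day 1, 11.57, 11.50 and 11.88 on day 2, 11.49, 11.12 and 11.39 on day 3, and 11.52, 11.49 and 11.57 on day 4. Its arrays of days 1, 3 and 4 were all below the controls. Slc7a9 fell by 0.55 ± 0.12 on day 3, or 1.47-fold (limma adjusted p = 0.0240), while its differences of -0.38, -0.24 and -0.36 on days 1, 2 and 4 were not called. The day 1 difference passed the test without day 1 replicate 2, the array that stood apart, at -0.46 (0.0496). That array was the highest of its day for Slc7a9, so leaving it out enlarges the difference. The difference also passed with array weights (0.0265), in a fit that called 7.61% of all genes on day 1, against 3.94% without weights. Its partner Slc3a1 read 12.18 to 12.43 in control and 12.15 to 12.74 over the RANKL arrays, with differences of 0.12, 0.23, -0.08 and 0.15, none called. The Slc7a9 call was lost without control replicate 2 or 3 or day 3 replicate 2 or 3 (0.0741 to 0.0988), and with each array centred on its median (0.0654).

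The carriers that take up most dietary peptides and neutral amino acids were called on no day. Slc15a1, the di- and tripeptide carrier PEPT1, read 12.24, 12.85 and 12.83 in control and 12.25 to 13.05 over the RANKL arrays; its differences were 0.01, 0.23, -0.14 and 0.19, and its 95% intervals on days 1 to 4 together spanned -0.59 to 0.67. Slc6a19, the main neutral amino acid carrier B0AT1, read 12.14 to 12.48 in control and 11.90 to 12.73 under RANKL, with differences of -0.10, 0.26, -0.04 and 0.02. Slc1a1, the glutamate and aspartate carrier EAAC1, read 10.88 to 11.09 in control and 10.42 to 11.59 under RANKL, with differences of -0.01, -0.00, -0.12 and -0.16. Slc6a18, a relative of Slc6a19 best known from the kidney, had differences of 0.01, 0.13, 0.07 and -0.02.

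Slc6a14 encodes a broad carrier of neutral and cationic amino acids, and it had the largest differences of any member without a call. It read 7.93, 7.32 and 6.49 in control, 7.23, 6.54 and 7.62 on day 1, 8.73, 8.73 and 10.39 on day 2, 9.60, 7.84 and 10.15 on day 3, and 6.44, 7.69 and 7.70 on day 4. The day 2 arrays lay above all controls, and day 3 overlapped them through replicate 2. The difference was 2.04 ± 0.61 on day 2, with a 95% interval of 0.73 to 3.35 (limma adjusted p = 0.120), and 1.95 ± 0.61 on day 3 (0.113). It was -0.12 on day 1 and 0.03 on day 4, with intervals of more than 1 log2 unit to either side. Without day 3 replicate 2, Slc6a14 passed the test on day 3 with a difference of 2.63 (0.0380). That array was the lowest of its day, so leaving it out raises the difference, and this is not counted as a call.

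**Figure D2:**
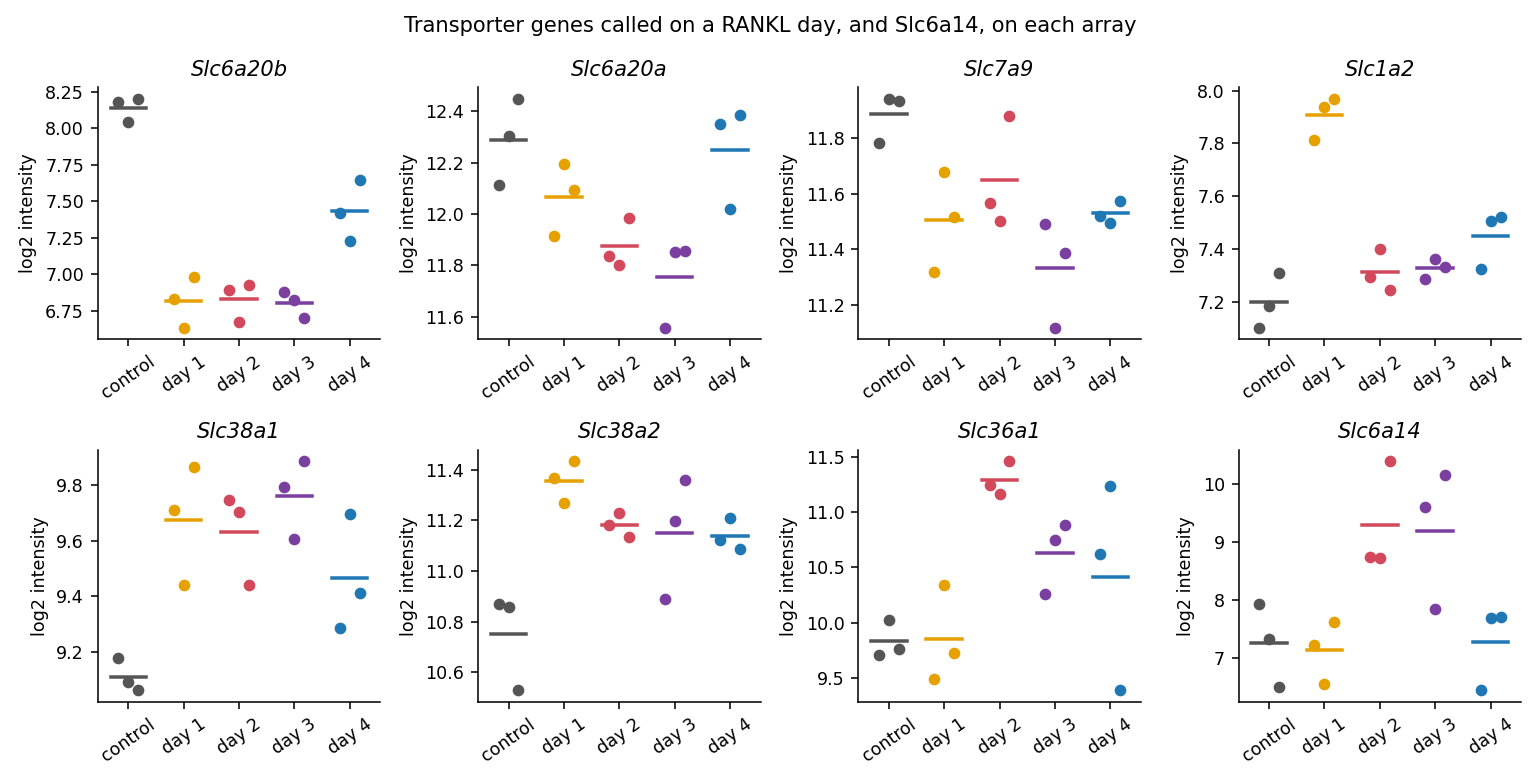
Log2 intensity of the 7 transporter genes called on at least 1 RANKL day, and of Slc6a14, on each array; points are arrays, bars are means of 3, and each panel has its own y axis, which does not start at 0. Slc6a20b is below all controls on all RANKL arrays, and Slc1a2 is above all controls on the 3 day 1 arrays.

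None of the 5 basolateral carriers was called on any day. Slc3a2 encodes 4F2hc, the heavy chain shared by the exchangers Slc7a7 (y+LAT1), Slc7a6 (y+LAT2) and Slc7a8 (LAT2), and Slc43a2 encodes the uniporter LAT4. Slc3a2 read 12.02 to 12.40 in control and 11.88 to 12.63 under RANKL, with differences of -0.06, 0.20, -0.04 and 0.17. Slc7a7 differed by -0.20, 0.11, -0.01 and 0.01 on days 1 to 4, Slc43a2 by -0.12, -0.02, -0.26 and -0.13, and Slc7a6 by 0.29, 0.17, 0.36 and 0.18. Slc7a8 differed by 0.40, 0.80, 0.18 and 0.44 with a standard error of 0.68, so changes of more than 1 log2 unit lay within its intervals. Its wide spread within groups is taken up further on.

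**Figure D3:**
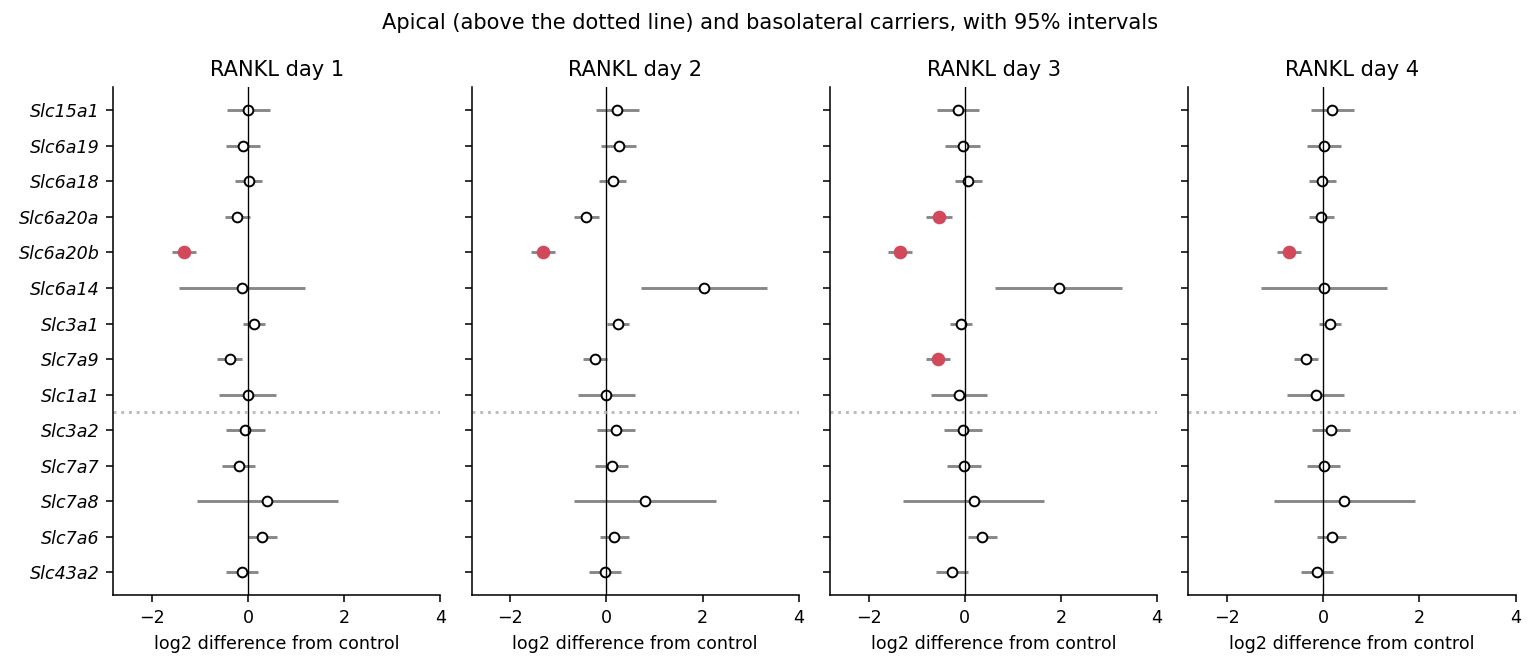
Log2 difference from control (x axis) with 95% intervals for 9 apical carriers above the dotted line and 5 basolateral carriers below it, on each RANKL day; filled points were called. Slc6a20b lies left of 0 on each day, and the intervals of Slc6a14 and Slc7a8 are the widest.

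Among 13 carriers of the plasma membrane in general, which serve the cell's own supply, Slc38a1 and Slc38a2 rose and none fell. They encode SNAT1 and SNAT2, sodium-coupled carriers of glutamine, alanine and other small neutral amino acids, and both genes are on chromosome 15. Slc38a1 read 9.18, 9.09 and 9.06 in control, 9.71, 9.44 and 9.86 on day 1, 9.75, 9.70 and 9.44 on day 2, 9.79, 9.61 and 9.88 on day 3, and 9.29, 9.70 and 9.41 on day 4. All 12 RANKL arrays lay above all controls. Slc38a1 rose by 0.56 ± 0.13 on day 1 (limma adjusted p = 0.0238), by 0.52 ± 0.13 on day 2 (0.0481) and by 0.65 ± 0.13 on day 3, or 1.57-fold (0.0146), and differed by 0.35 on day 4 (0.348). A dimmer probe set of the gene gave differences of 0.41, 0.48, 0.90 and 0.65, all in the same direction.

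The Slc38a1 calls were open to single arrays. The day 1 call was lost without control replicate 2 or 3 or day 1 replicate 1 or 3 (limma adjusted p 0.0744 to 0.0900), the day 3 call without control replicate 2 or 3 or day 3 replicate 3 (0.0503 to 0.0819), and the day 2 call without any control array, day 1 replicate 1, day 2 replicate 1 or 2, any day 3 array or day 4 replicate 3 (0.0528 to 0.204). With each array centred on its median all 3 were lost (0.0877 to 0.305). The calls of days 1 and 2 were lost with the mean of both probe sets (0.136 and 0.157) and with values as deposited (0.157 and 0.154), that of day 1 in a fit of only the 2 groups (0.0930), and that of day 2 with an offset of 16 (0.0502) or the replicate block (0.0661).

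Slc38a2, an ATF4 target that cells raise when amino acids are short, read 10.87, 10.86 and 10.53 in control, 11.37, 11.27 and 11.43 on day 1, 11.18, 11.23 and 11.14 on day 2, 10.89, 11.20 and 11.36 on day 3, and 11.12, 11.21 and 11.09 on day 4. All 12 RANKL arrays lay above all controls, day 3 replicate 1 by the least. Slc38a2 rose by 0.60 ± 0.11 on day 1, or 1.52-fold (limma adjusted p = 0.00809), and differed by 0.43, 0.40 and 0.39 on days 2 to 4 (0.0697, 0.0814 and 0.195), not called. Without day 3 replicate 1, its lowest RANKL array, it passed the test on day 2 (0.0273) and day 3 (0.0194). With array weights it passed on both days too (0.0147 and 0.0121), in a fit that called 4.66% and 6.63% of all genes. These are not counted as calls. The day 1 call was lost with each array centred on its median (0.0836) and in a fit of only the 2 groups compared (0.0685).

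Slc7a5, the leucine-preferring exchanger LAT1, read 8.79, 8.66 and 8.40 in control and 8.77 to 9.20 under RANKL, with differences of 0.22, 0.38, 0.41 and 0.30, none called, though day 3 passed with array weights (limma adjusted p = 0.0352). That fit called 6.63% of all genes on day 3, against 2.96% without weights. Slc7a11, the cystine-glutamate exchanger xCT, differed by -0.16, 0.04, 0.21 and 0.46; on day 4 its arrays, at 6.87, 7.10 and 6.61, all lay above the controls at 6.40, 6.43 and 6.39, but the adjusted p was 0.393. Slc1a5, the glutamine exchanger ASCT2, differed by -0.03, -0.05, 0.35 and 0.20. Over 9 carriers known as ATF4 targets, 1 rose on day 1 (Slc38a2) and none was called on days 2 to 4, and the median differences were -0.03, 0.04, 0.21 and 0.23.

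Of 6 lysosomal and endosomal carriers, Slc36a1 was called, on day 2. It encodes PAT1, which exports small neutral amino acids from lysosomes with protons and also occurs at the brush border. Slc36a1 read 9.71, 10.03 and 9.77 in control, 9.50, 10.34 and 9.73 on day 1, 11.24, 11.16 and 11.46 on day 2, 10.26, 10.75 and 10.88 on day 3, and 10.62, 11.23 and 9.39 on day 4. The arrays of days 2 and 3 lay above all controls, and on day 4 replicate 3 lay below them. Slc36a1 rose by 1.46 ± 0.35 on day 2, or 2.74-fold (limma adjusted p = 0.0455), and differed by 0.02, 0.80 and 0.58 on days 1, 3 and 4. The day 2 call was lost without any of the controls (0.0752 to 0.151), any day 2 array (0.118 to 0.131), or any of day 1 replicate 3, day 3 replicates 2 and 3 and day 4 replicate 1 (0.0597 to 0.0621), and with an offset of 16 (0.0505) or a trended and robust prior (0.0666).

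Of 15 measured carriers of neurotransmitters and related brain carriers, Slc1a2 was called, on day 1. It encodes GLT-1, the main glutamate carrier of astrocytes. Slc1a2 read 7.10, 7.18 and 7.31 in control, 7.81, 7.94 and 7.97 on day 1, 7.29, 7.40 and 7.24 on day 2, 7.28, 7.36 and 7.33 on day 3, and 7.32, 7.51 and 7.52 on day 4. The day 1 arrays stood above all others, and those of days 2 and 3 overlapped the controls. Slc1a2 rose by 0.71 ± 0.08 on day 1, or 1.63-fold (limma adjusted p = 0.000141), a call lost under none of the 25 other settings. Its differences of 0.11, 0.13 and 0.25 on days 2 to 4 were not called. Of the neural and glial marker list, 4 of 6 were measured and none was called on any day.

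None of the 3 osmolyte and creatine carriers was called. Slc6a6, the taurine carrier, read 10.96 to 11.25 in control and 10.83 to 11.52 under RANKL, with differences of -0.07, -0.00, 0.28 and 0.16. None of the 18 members outside these roles was called, and their differences ranged from -0.33 to 0.47 over the 4 days.

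Genes that feed these carriers or read their cargo were taken from lists beside the members. Of 12 measured brush-border peptidases and carrier partners, none was called on days 1, 2 or 4 and 3 fell on day 3. These were Mep1a, a chain of the metalloprotease meprin, at -0.99 ± 0.23 (limma adjusted p = 0.0352), Dpep1, a dipeptidase, at -0.67 ± 0.12 (0.0102), and Naaladl1, an intestinal peptidase, at -0.40 ± 0.09 (0.0309). The calls were lost under 9, 2 and 8 of the 25 other settings. None of 14 measured amino acid response genes was called on any day, with medians of 0.04, 0.03, 0.10 and 0.16. Of 15 measured genes of amino acid sensing by the kinase mTORC1, Rragd, a Rag GTPase of the lysosome surface, rose by 1.42 ± 0.22 on day 1 (limma adjusted p = 0.00186). It differed by 0.80 on day 2 (0.0756), 0.45 on day 3 (0.329) and 0.95 on day 4 (0.0628), with all arrays of days 2 and 4 above the controls, and without day 3 replicate 1 or 2 it was called on day 2 (0.0304 and 0.0316) and day 4 (0.0240 and 0.0238). Castor2, a relative of the arginine sensor Castor1, fell by 0.77 ± 0.14 on day 1 (0.00784) and by 0.80 ± 0.14 on day 3 (0.00865), and its difference on day 2 was -0.49 (0.115). The Rragd call on day 1 and both Castor2 calls were lost under none of the 25 other settings.

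The RANKL days were also compared among themselves. These differences use no control mean, but the control arrays entered the spread of the shared fit over all 15 arrays. An F test over the 4 days called 2 members, Slc1a2 (limma adjusted p = 0.00543) and Slc6a20b (0.0246), where 1.11% of all genes were called. Between day 4 and day 1 the same 2 were called, where 1.32% of all genes were, 1.04% higher and 0.276% lower on day 4. Slc6a20b was higher on day 4 by 0.62 ± 0.11 (0.0165), every day 4 array lying above every day 1 array. Slc1a2 was lower on day 4 by a difference of -0.46 ± 0.08 (0.0130), again with no overlap. Day 4 values entirely above or below those of day 1 occurred in 12.8% and 6.71% of all genes. The Slc6a20b difference lost its call without day 1 replicate 1 (0.0521) or 2 (0.0591) or day 4 replicate 1 (0.0838) or 3 (0.0588), that of Slc1a2 without day 4 replicate 1 (0.0800), and both in a fit of only these 2 groups (0.190 and 0.162).

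A few members varied more between arrays of 1 group than most. The pooled standard deviation within groups was 0.97 for Slc7a8, 0.86 for Slc6a14, 0.61 for Slc7a15 and 0.50 for Slc36a1, against a median of 0.15 over the members and 0.13 over all genes. Slc7a15, named for its spread after its values were seen, encodes an amino acid carrier that prefers aromatic substrates. Slc7a8 read 9.81, 11.27 and 11.46 in control, 9.66, 12.08 and 11.36 on day 3, and 11.98, 12.15 and 9.74 on day 4. On these days 1 array of each group lay more than 1 log2 unit below the other two. Lct, the lactase gene that is highest in the jejunum, read 8.07, 10.46 and 10.73 on the same control arrays, 8.55, 10.86 and 8.70 on day 3, and 12.03, 11.76 and 8.57 on day 4.

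The deviations of these 4 genes from their group means were set against those of Lct and of Slc10a2, the ileal bile acid carrier gene, over the 15 arrays. These 8 relations were chosen after the values were seen, the arrays share the same normalisation, and p-values come from all 7776 permutations within groups, adjusted over the 8. Slc7a8 followed Lct with r = 0.90 (adjusted permutation p = 0.00343) and rho = 0.93 (0.0036), and r was 0.87 without the 2 arrays with the most extreme Lct. Against Slc10a2 its r was -0.82 (0.00343) and rho -0.85 (0.00309). Slc7a15 gave r = 0.89 (0.00343) and rho = 0.91 (0.0036) with Lct, and r = -0.64 (0.0103) and rho = -0.71 (0.0036) with Slc10a2. Slc6a14 ran the other way, with r = -0.68 (0.0103) and rho = -0.73 (0.0154) against Lct and r = 0.68 (0.0526) and rho = 0.68 (0.0375) against Slc10a2. Slc36a1 gave r = 0.74 (0.0526) and rho = 0.74 (0.0375) with Lct, which dropped to r = 0.55 without the 2 extreme arrays, and r = -0.62 (0.0639) and rho = -0.57 (0.0914) with Slc10a2. Without the 2 arrays with the most extreme Slc10a2, r against it was -0.77 for Slc7a8, -0.62 for Slc7a15, 0.69 for Slc6a14 and -0.59 for Slc36a1; without the 2 extreme Lct arrays, r against Lct was 0.88 for Slc7a15 and -0.70 for Slc6a14. With log2 Lct as a covariate the Slc6a14 difference on day 2 was 2.37 and was called (limma adjusted p = 0.0159). This covariate was chosen after the values were seen, and it follows the spread of Slc6a14 within groups. The call is therefore no separate evidence of a rise on day 2. The labels name no stretch of the small intestine, and the part of segment in the spread of these genes was not tested beyond these relations.

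**Figure D4:**
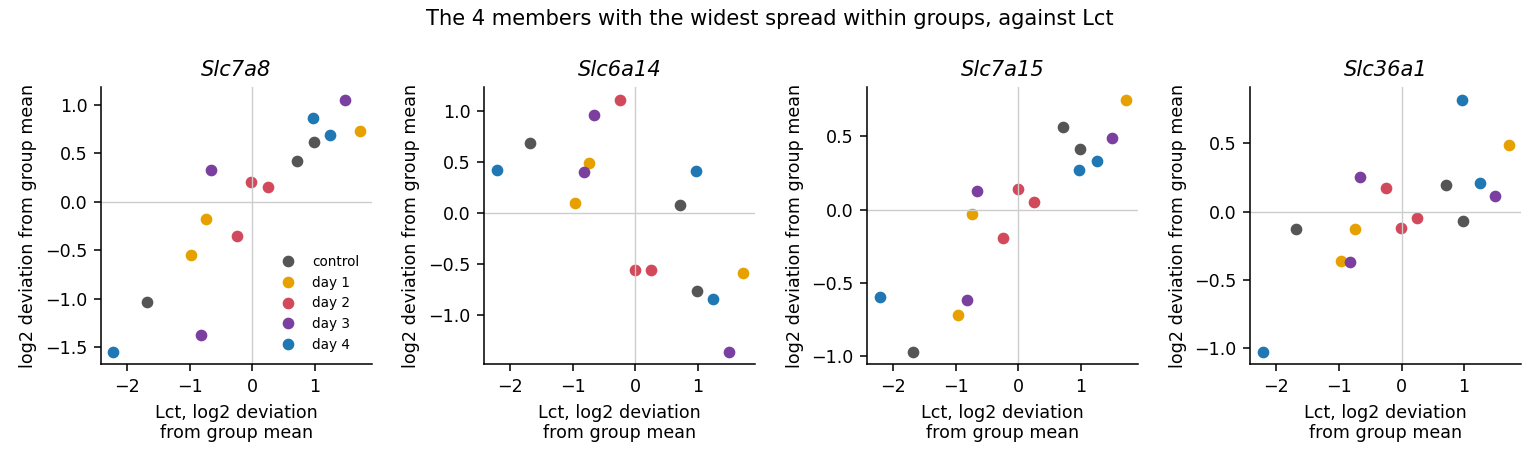
Deviation of log2 intensity from the group mean for the 4 members with the widest spread within groups (y axis) against that of Lct (x axis), 1 point per array, coloured by group. Slc7a8 and Slc7a15 rise with Lct, Slc6a14 runs opposite to it, and the Slc36a1 panel has its lowest point on day 4.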

How the data were processed

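The deposited table gives linear probe set intensity values, 25.95 to 24107, for 28853 probe sets on 15 arrays in 5 groups; how the authors summarised, background-corrected or scaled them is not given in the sources used here. Per the submitters' processing notes the build was mm9, and per the labels' protocols RNA was labelled with biotin. Array medians were 147 to 167, and the number of arrays limits the precision.

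Log2 values, with nothing added, were quantile normalised. Of the probe sets, 21789 carried 1 gene symbol in the platform annotation, 1621 several and 5443 none; those with 1 symbol gave 19938 genes, each read from its brightest probe set (999 genes had several). No dim gene was left out. One linear model over all arrays (R 4.3.3, limma 3.58.1) gave moderated two-sided tests with 10 residual and 3.49 prior degrees of freedom, adjusted over all genes, and intervals at 95% confidence. The procedure was tested on simulated data, drawn independently for each array. For day 1 against control it called 59% of 100 added differences of 0.5 log2 units and 94% of 100 of 1 log2 unit. Of its calls, 4.38% were false. Many true differences near 0.5 would thus not be called. The alternatives were values as deposited, median centring, an added offset of 16, a filter on the dimmest 40% of genes, the mean of a gene's probe sets, a trended and robust prior, array weights, the replicate number as a block, only the groups compared and each array left out in turn.

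The members, lists and tests were chosen with earlier results of these data known. Members named with values were those called, the apical and basolateral lists, and Slc1a5, Slc7a5, Slc7a11, Slc36a1, Slc38a2 and Slc6a6; of companion lists, up to 4 called genes. No column of the table was left unused.

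Replicate numbers recur in all groups. As a check of pairing, deviations from group means correlated with a median of 0.14 over 30 same-numbered pairs of arrays (-0.20 to 0.50, 19 over 0.1) and of -0.07 over 60 other pairs (12 over 0.1). Same-numbered arrays thus shared some variation. All 3 pairs were over 0.1 between control and day 2 and between control and day 3 (0.12 to 0.38), so the numbers were taken to pair the arrays there, but not between control and day 1 or 4 or between days 1 and 4. The labels give no reason for it, and the fit reported has no block.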

Additional observations from a re-analysis of the deposited data

Results flagged for a closer look

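The differences of 2 transporter genes from control were not the same on all RANKL days by a direct test of day 4 against day 1. Slc6a20b was higher on day 4 than on day 1 by 0.62 on the log2 scale (limma adjusted p = 0.0165), with means of 7.43 and 6.81 and no overlap of the arrays. Slc1a2 fell by 0.46 between day 1 and day 4 (limma adjusted p = 0.0130), from a mean of 7.91 to 7.45, again with no overlap. Of 25 other settings, 5 lost the Slc6a20b call and 2 that of Slc1a2. A fit of only these 2 groups lost both. Both were called among all 19938 genes, of which 1.32% were.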

How the results depend on the processing

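No called result reversed under any alternative. The counts of members called stood at 4, 3, 4 and 1 on days 1 to 4, at 2 between days 4 and 1 and at 2 in the F test. The shares of all genes called were 3.94%, 2.57%, 2.96%, 0.908%, 1.32% and 1.11% in the same order. With each array left out in turn the member counts ranged from 3 to 5, 1 to 3, 1 to 5, 1 to 1, 0 to 2 and 1 to 3. The all-gene shares then ranged from 2.23% to 5.03%, 1.42% to 3.6%, 1.18% to 5.96% and 0.476% to 1.69% on days 1 to 4. They ranged from 0.291% to 2.54% between days 4 and 1 and from 0.406% to 1.04% in the F test. Median centring gave 2 on day 1 and 2 on day 3, where 2.41% and 1.29% of all genes were called. An offset of 16 gave 1 on day 2, where 2.6% of all genes were called. Array weights, whose fit stopped before its convergence tolerance, gave 5 on day 2, 8 on day 3 and 6 in the F test. With these weights the calls rose over all genes too, to 4.66%, 6.63% and 8.61%. Fits of only the groups compared gave 2 on day 1, 0 between days 4 and 1 and 1 in the F test. Of all genes they called 1.35%, 0.0201% and 0.722%. The share of higher genes among all genes called moved from 50.7% to 37.3% on day 1 and from 79.1% to 95.4% between days 4 and 1 under median centring. The cause of these changes was not tested. With log2 Lct as a covariate, an alternative chosen after seeing the data, the counts were 4, 4, 4, 1, 3 and 3. The all-gene shares were 4.42%, 2.7%, 3.28%, 0.998%, 1.89% and 1.45%.

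With the replicate block the counts were 4, 2, 4, 1, 3 and 2, where 5.28%, 3.18%, 3.57%, 1.08%, 2.37% and 1.46% of all genes were called. Slc38a1 on day 2 was not called with it (limma adjusted p = 0.0661). The other member calls against control were kept.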
